A study of Homo sapiens with 26 samples.

Results

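The genes described here are 6 ligands of the epidermal growth factor (EGF) family, EPGN, EREG, AREG, HBEGF, TGFA and BTC, and 3 receptors of the ERBB family, EGFR, ERBB2 and ERBB3. They were taken by symbol from a count table of 58039 genes, and all 9 were among the 17198 genes with enough counts to be tested. The cells were HCT116, an established line from a human colorectal carcinoma, measured by RNA sequencing in 26 libraries that form 9 groups. The tested genotypes carried CRISPR knockouts of CDK8, of its paralog CDK19, or of both genes (DKO), the alternative kinases of the Mediator complex that connects transcription factors with the polymerase. Some samples had JQ1, an inhibitor that takes BET proteins off acetylated chromatin, and neither its dose nor its time was found in the labels.

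The 9 groups were CDK8KO-C1 and CDK8KO-C2 (n = 3 each), CDK19KO-C1 and CDK19KO-C2 (n = 3 each), DKO-C1 with JQ1 (n = 2), DKO-C1 without it (n = 3), DKO-C2 (n = 3), control HCT116 cells with JQ1 (n = 3) and control cells without it (n = 3). C1 and C2 are separate sublines of a genotype, so libraries within 1 subline do not carry the spread between lines, and no label says whether replicates were separate cultures. The p-values therefore measure the spread among these libraries, which may be technical. The 3 DKO-C2 columns were assigned by elimination and 1 DKO-C1 JQ1 column by group alone, so the DKO changes of EREG, AREG, HBEGF, TGFA, BTC and ERBB2 against control are also given for DKO-C1 by itself.

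Each library held 17700864 to 19093094 gene counts and 193685 to 807887 ERCC spike-in counts, and mitochondrial genes took 4.55% to 8.62%. CDK8 RNA stood at 89.0% of control in CDK8KO and 75.5% in DKO, and CDK19 RNA at 80.3% in CDK19KO and 131% in DKO. The edited sites are not given, so these RNA levels do not check the knockouts. Of 8 epithelial marker genes, VIL1 was nearly absent (0 to 0.261 CPM), whereas KRT8 ran from 2049 to 4504 CPM and EPCAM from 239 to 413 CPM. The summed epithelial markers came to 4785 to 7709 CPM in the knockout and JQ1 libraries, against 4018 to 4582 CPM in control libraries. Endothelial markers (4 genes) summed to at most 1.04 CPM and immune markers (5 genes) to at most 0.885 CPM, while the 6 fibroblast markers summed to 13.8 to 30.7 CPM, nearly all of it COL1A1. The part of these differences in the results below was not tested.

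EGF family ligands are made as membrane-anchored precursors that ADAM metalloproteases cut free. They bind ERBB receptors, which pair up and switch on RAS-MAPK and PI3K signalling. AREG, EREG, TGFA, HBEGF and BTC all bind EGFR, ERBB2 has no known ligand and acts as the preferred partner of the others, and ERBB3 binds neuregulins. In colorectal cancer, AREG and EREG are the ligands most often measured because tumours rich in them tend to respond better to antibodies against EGFR.

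EPGN, EREG and AREG lie next to each other on the plus strand of chromosome 4 of hg38, within 146.537 kb. EPGN (ENSG00000182585) spans 74308473 to 74315307, EREG (ENSG00000124882) 74365143 to 74388751 and AREG (ENSG00000109321) 74445134 to 74455009 in GENCODE v29. BTC (ENSG00000174808) follows after a gap of 289.749 kb, on the minus strand from 74744759 to 74794686. The 250 bases before the RefSeq start (build GRCh38.p14, plus strand) are shown for EPGN, EREG and AREG. EPGN was high in a single subline. EREG and AREG moved the same way against control in each knockout genotype, but parted under JQ1 in DKO-C1, where only EREG was called. Capitals mark matches to 5 motifs searched on both strands: the TATA box TATAAA, the cAMP response element TGACGTCA, the AP-1 motif TGANTCA, the TEAD motif GGAATG and the GC box GGGCGG.
EREG promoter, chr4:74364895-74365144: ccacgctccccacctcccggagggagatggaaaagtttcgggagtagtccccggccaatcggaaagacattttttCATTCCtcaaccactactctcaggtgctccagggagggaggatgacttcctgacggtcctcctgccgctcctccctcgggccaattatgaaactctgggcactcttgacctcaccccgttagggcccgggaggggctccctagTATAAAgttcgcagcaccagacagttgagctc
AREG promoter, chr4:74444886-74445135: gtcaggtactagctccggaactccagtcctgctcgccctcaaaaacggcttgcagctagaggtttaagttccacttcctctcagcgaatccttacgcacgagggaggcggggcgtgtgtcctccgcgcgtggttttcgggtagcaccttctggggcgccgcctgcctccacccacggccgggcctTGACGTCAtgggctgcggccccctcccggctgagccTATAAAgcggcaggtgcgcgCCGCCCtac
EPGN promoter, chr4:74308220-74308469: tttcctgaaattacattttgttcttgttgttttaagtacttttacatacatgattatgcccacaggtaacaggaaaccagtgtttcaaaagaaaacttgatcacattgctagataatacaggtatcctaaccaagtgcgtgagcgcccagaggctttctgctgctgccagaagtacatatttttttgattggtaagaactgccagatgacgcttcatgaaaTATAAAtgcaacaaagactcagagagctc

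A TATA box lay 32 to 27 bases before the start of EREG, and 29 to 24 bases before the starts of AREG and EPGN. The same 6 letters stand in 10.7% of the 35116 RefSeq promoters over their 250 bases before the start. AREG also held a cAMP response element 65 to 58 bases before its start, which 1.65% of promoters have, and a GC box on the minus strand 9 to 4 bases before it (42.6% of promoters). EREG held a TEAD motif on the minus strand 175 to 170 bases before its start (11.9% of promoters), and EPGN held only the TATA box. The AP-1 motif, found in 6.57% of promoters, was in none of these 3 windows. Of the other members with a promoter in the table, HBEGF had 5 GC boxes, of which 2 share a base, TGFA had 3, ERBB2 had 1 AP-1 motif and BTC had no match. EGFR has a pair of promoters in the table, 1 with 2 GC boxes and the other with 2 TATA boxes, 2 AP-1 motifs and 1 TEAD motif. These are matches of letters and not measured binding sites.

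Differences were tested with the quasi-likelihood test of edgeR, and calls needed an adjusted p (Benjamini-Hochberg, over the 17198 tested genes) under 0.05. Levels are given in CPM, the usual depth-scaled counts, here over the TMM-adjusted library size, and levels of different genes are set side by side only in RPKM, CPM per kilobase of exon. Every rise and fall below is relative to the median gene. When the library factors were taken from ERCC counts, the median gene moved on the log2 scale by -1.22 (CDK8KO), -1.65 (CDK19KO) and -0.90 (DKO) against control, and under JQ1 by -0.37 in control cells and -0.27 in DKO-C1. For the direct contrast of CDK8KO with CDK19KO the move was 0.43, and for DKO past the summed single knockouts it was 1.97. The labels name the spike-in for control and DKO samples only, although all libraries held ERCC counts, so a difference between library batches and the effect of a single knockout cannot be told apart. In bulk RNA, likewise, fewer cells expressing a gene and less RNA per cell cannot be told apart.

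In CDK8KO, 6 of the 9 members were called, 2 higher and 4 lower, where 40.5% of all tested genes were called. In CDK19KO 5 were called, all higher, against a background of 43% (21% counting only rises). In DKO 6 were called, 4 higher and 2 lower, against 61.6%. With ERCC factors 8 members were called in CDK8KO, all lower, 9 in CDK19KO, 1 higher (EPGN) and 8 lower, and 6 in DKO, all lower. Shares of called genes this large mean that a call alone sets few genes apart, and sizes matter more. Changes of at least 2-fold were called for 3.43% of tested genes in CDK8KO, 3.86% in CDK19KO and 16.6% in DKO. By subline, 5 members were called in CDK8KO-C1 (background 39.2%), 7 in CDK8KO-C2 (34%), 6 in CDK19KO-C1 (46.1%), 6 in CDK19KO-C2, all higher (42.4%, and 21.8% counting only rises), 6 in DKO-C1 (55.9%) and 6 in DKO-C2 (58.9%). The CDK8KO-C1 count was 3 without its replicate 2. With ERCC factors 8 members were called in CDK19KO-C2, all lower.

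EREG encodes epiregulin, a ligand of EGFR and ERBB4, and had more RNA per kilobase of exon than any other member in 8 of the 9 groups. It measured 568, 603 and 604 CPM in CDK8KO-C1 and 344, 360 and 371 CPM in CDK8KO-C2, against 933, 1090 and 953 CPM in control. No CDK8KO library reached the lowest control library. The CDK8KO mean for EREG was 46.4% of control (log2 fold change -1.11 ± 0.0565 SE, edgeR adjusted p = 3.16e-18), at 59.6% in C1 (-0.75 ± 0.0674, adjusted p = 2.42e-11) and at 36.1% in C2 (-1.47 ± 0.0688, adjusted p = 2.88e-19). In CDK19KO it went the other way, with 1257, 1232 and 1230 CPM in C1 and 1283, 1336 and 1358 CPM in C2, all above every control library. That is a rise to 129% of control (0.37 ± 0.0587, adjusted p = 3.14e-06), which turned into a fall of -1.29 with ERCC factors. In DKO it measured 215, 197 and 197 CPM in C1 and 177, 133 and 162 CPM in C2, below every library of the CDK8KO sublines. EREG fell to 18% of control in DKO (-2.47 ± 0.0569, adjusted p = 1e-30) and to 20.5% in DKO-C1 alone (-2.29 ± 0.0711, adjusted p = 3.09e-26). With ERCC factors the falls in CDK8KO (-2.33) and DKO (-3.39) were called as well.

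AREG encodes amphiregulin, an EGFR ligand, and followed the same order of genotypes with a wider range. AREG measured 66.02, 68.22 and 66.98 CPM in CDK8KO-C1 and 24.6, 24.2 and 26.8 CPM in CDK8KO-C2, against 114, 147 and 131 CPM in control. The sublines did not overlap with control or with each other. It fell to 31.5% of control in CDK8KO (-1.67 ± 0.0587, adjusted p = 5.92e-23), to 51.4% in C1 and to 19.3% in C2. In CDK19KO, AREG measured 288, 310 and 324 CPM in C1 and 220, 227 and 215 CPM in C2, and every library lay above control. It rose to 200% of control (1.0 ± 0.0575, adjusted p = 1.14e-16), but fell by 0.66 on the log2 scale with ERCC factors. DKO-C1 had 19.5, 18.8 and 21.7 CPM and DKO-C2 had 16.0, 17.7 and 16.2 CPM. At 14.0% of control (-2.84 ± 0.0624, adjusted p = 2.24e-31), this was the largest change of any member in DKO, and it was -2.70 ± 0.0774 in DKO-C1 alone (adjusted p = 2.16e-27). With ERCC factors the fall was called in CDK8KO (-2.90) and in DKO (-3.74).

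**Figure D1:**
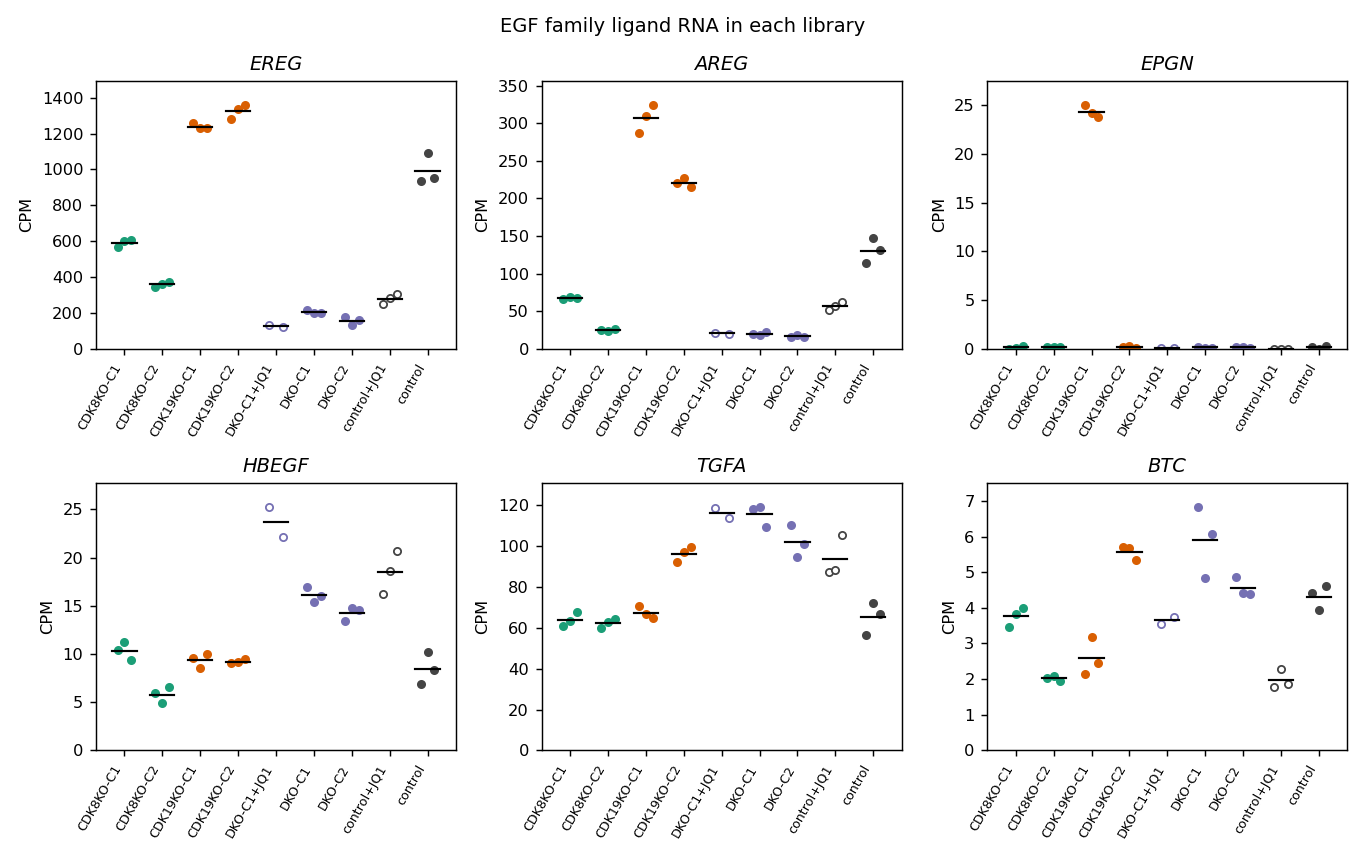
RNA of the 6 ligands in each library, in CPM (depth-scaled counts over the TMM-adjusted library size), with open points for JQ1 and a line at each group's mean; each panel has its own linear axis. EREG and AREG are lowest in the DKO groups and highest in the CDK19KO sublines, and EPGN lies near 0 outside CDK19KO-C1; with ERCC factors in place of TMM the CDK19KO rises of EREG and AREG turn into falls.

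CDK8KO and CDK19KO were also set against each other, to ask how the paralogs differ without crossing the label for the spike-in. All 9 members were called, 2 higher and 7 lower in CDK8KO, where 47.1% of tested genes were called. EREG was at 35.9% (-1.48 ± 0.0485, adjusted p = 1.07e-24) and AREG at 15.8% (-2.66 ± 0.0505, adjusted p = 3.32e-32) of its CDK19KO level, and both falls kept their sign and call with ERCC factors. HBEGF (-0.27 ± 0.0863, adjusted p = 0.011) lost its call without CDK8KO-C2 replicate 2 (-0.21, adjusted p = 0.0546), and with ERCC factors HBEGF, TGFA and EGFR changed sign. BTC lost its call with those factors (-0.04, adjusted p = 0.832). In the C1 sublines alone BTC (0.53, adjusted p = 0.00453) and EGFR (0.57, adjusted p = 7.43e-10) were higher in CDK8KO, while HBEGF (0.14, adjusted p = 0.325), TGFA (-0.07, adjusted p = 0.417) and ERBB3 (0.08, adjusted p = 0.334) were not called. In the C2 sublines alone EPGN was not called (0.12, adjusted p = 0.917).

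DKO was compared with the sum of the single knockouts on the log2 scale, to ask whether loss of both kinases goes beyond adding their effects. All 9 members were called, 4 higher and 5 lower, where 59.2% of tested genes were called. EREG in DKO was at 30.0% of the level the sum gives (-1.74 ± 0.078, adjusted p = 5.38e-21) and AREG at 22.2% (-2.17 ± 0.0833, adjusted p = 3.65e-23). HBEGF was at 178% (0.83 ± 0.132, adjusted p = 1.22e-06), BTC at 214% (1.096 ± 0.16, adjusted p = 2.8e-07) and EGFR at 144% (0.52 ± 0.0669, adjusted p = 1.75e-08). This contrast crosses the spike-in label, and with ERCC factors EREG turned to 0.23, ERBB2 to 1.44 and ERBB3 to 1.72, while AREG stood at -0.18 with no call (adjusted p = 0.291). ERBB3 (-0.24 ± 0.0773, adjusted p = 0.00684) lost its call without control replicate 3 (-0.18, adjusted p = 0.0611) and in the C1 sublines alone (-0.15, adjusted p = 0.198). In the C2 sublines alone EGFR (0.10, adjusted p = 0.332), TGFA (0.15, adjusted p = 0.237) and EPGN (-0.35, adjusted p = 0.8) were not called, so their calls rest on the C1 sublines.

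EPGN encodes epigen, a low-affinity ligand of EGFR. In CDK19KO-C1 it had 452, 435 and 427 counts, or 25.0, 24.2 and 23.8 CPM. The other 23 libraries held 0 to 5 counts each and 54 in all, with 3, 0 and 5 in control. Scaled for library size, its summed counts in CDK19KO-C1 were 170-fold those in control, with an exact 95% interval of 86.2 to 396 that covers counting error only, and 148-fold those in CDK19KO-C2 (77.8 to 324). EPGN rose in C1 (7.35 ± 0.236, adjusted p = 2.02e-23), also with ERCC factors (5.63), and was not called in C2 (0.19 ± 0.723, adjusted p = 0.857). The call for both sublines together (3.77 ± 0.56, adjusted p = 1.27e-06) thus rests on C1. In that subline EPGN made up 3.09% of the summed ligand RPKM. Under JQ1, control cells had 0 counts in 3 libraries against 8 in control. With a floor of 3 counts set for the JQ1 group, that is 2.51-fold lower. This value takes the 8 control counts as exact, so it is not a lower bound. The edgeR call of this fall (adjusted p = 0.01) was lost without control replicate 3 (adjusted p = 0.0663).

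BTC encodes betacellulin, a ligand of EGFR and ERBB4, and was low throughout, between 1.77 and 6.83 CPM. It measured 3.45, 3.82 and 4.0 CPM in CDK8KO-C1 and 2.04, 2.08 and 1.93 CPM in CDK8KO-C2, against 4.41, 3.95 and 4.60 CPM in control. C2 lay below control, whereas C1 overlapped it. The fall in CDK8KO (-0.65 ± 0.128, adjusted p = 8.69e-05) was carried by C2 (-1.095 ± 0.159, adjusted p = 9.02e-07), with C1 not called (-0.20 ± 0.14, adjusted p = 0.271). The CDK19KO sublines lay on opposite sides of control, with 2.16, 3.18 and 2.45 CPM in C1 (-0.73 ± 0.152, adjusted p = 0.000129) and 5.70, 5.67 and 5.34 CPM in C2 (0.37 ± 0.13, adjusted p = 0.0214). Their average was not called (-0.18 ± 0.121, adjusted p = 0.23). The rise in C2 turned into a fall with ERCC factors (-1.17) and lost its call without C2 replicate 1 (0.35, adjusted p = 0.061) or C2 replicate 2 (0.35, adjusted p = 0.0556) and likewise without control replicate 2 (0.31, adjusted p = 0.0932). In DKO it measured 6.83, 4.85 and 6.07 CPM in C1 and 4.85, 4.41 and 4.39 CPM in C2. The rise in DKO was small (0.26 ± 0.114, adjusted p = 0.0445) and turned into a fall with ERCC factors (-0.63). C1 was called (0.45 ± 0.128, adjusted p = 0.00273) and C2 was not (0.07 ± 0.134, adjusted p = 0.654), but the difference between them was not called either (0.38, adjusted p = 0.0527). The DKO rise was not called without DKO-C1 replicate 1 (0.21) or 3 (0.25), DKO-C2 replicate a (0.24), or control replicate 1 (0.28) or 2 (0.20), with adjusted p from 0.0667 to 0.187.

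HBEGF encodes heparin-binding EGF-like growth factor, a ligand of EGFR and ERBB4 (ENSG00000113070, chromosome 5, 140332843 to 140346631, minus strand). It measured 16.9, 15.4 and 16.1 CPM in DKO-C1 and 13.4, 14.8 and 14.5 CPM in DKO-C2, against 6.87, 10.2 and 8.29 CPM in control. The DKO libraries lay above all control libraries. HBEGF rose to 179% of control in DKO (0.84 ± 0.0969, adjusted p = 1.29e-09) and to 191% in DKO-C1 alone, but stood at -0.06 with ERCC factors, with no call. In the single knockouts it measured 10.4, 11.2 and 9.39 CPM in CDK8KO-C1, 5.91, 4.94 and 6.55 CPM in CDK8KO-C2, and 8.58 to 9.96 CPM in the 6 CDK19KO libraries. The CDK8KO sublines lay on opposite sides of the control mean, at 0.29 ± 0.117 in C1 (adjusted p = 0.0449) and -0.55 ± 0.129 in C2 (adjusted p = 0.00106), and their average was not called (-0.13 ± 0.106, adjusted p = 0.367). The C1 call was lost without C1 replicate 1 (0.29, adjusted p = 0.0954) or 2 (0.23, adjusted p = 0.188) and without control replicate 1 (0.16, adjusted p = 0.327) or 3 (0.28, adjusted p = 0.107), and C1 fell with ERCC factors (-0.90). CDK19KO was not called (0.14 ± 0.103, adjusted p = 0.293), but was without control replicate 2 (0.30, adjusted p = 0.0372).

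TGFA encodes transforming growth factor alpha, an EGFR ligand (ENSG00000163235, chromosome 2, 70447280 to 70554193, minus strand). Its levels were 118, 119 and 109 CPM in DKO-C1 and 110, 94.5 and 101 CPM in DKO-C2, against 56.4, 72.1 and 66.8 CPM in control, with no overlap. TGFA rose to 167% of control in DKO (0.74 ± 0.0628, adjusted p = 6.64e-13), and to 178% in DKO-C1 alone (0.83 ± 0.0706, adjusted p = 9.48e-13). With ERCC factors it stood at -0.17 in DKO, with no call. CDK8KO libraries held 59.7 to 67.5 CPM and overlapped control (-0.04 ± 0.0632, adjusted p = 0.621). CDK19KO-C2 had 92.0, 96.9 and 99.7 CPM and CDK19KO-C1 70.9, 66.6 and 64.6 CPM. The rise in C2 (0.56 ± 0.0713, adjusted p = 3.94e-08) was not shared by C1 (0.05 ± 0.0728, adjusted p = 0.611), and it turned into a fall with ERCC factors (-0.98).

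Summed over the 6 ligands, RPKM was 162 ± 4.75 in CDK8KO-C1, 93.3 ± 3.56 in CDK8KO-C2, 434 ± 7.78 in CDK19KO-C1 and 390 ± 7.59 in CDK19KO-C2 (SD, n = 3 each). It was 78.5 ± 2.57 in DKO-C1 and 64.5 ± 4.80 in DKO-C2, against 270 ± 26.3 in control (SD, n = 3 each). The makeup of this sum differed too. EREG took 45.3% in DKO-C1 and 42.4% in DKO-C2, against 64.3% in control, and TGFA took 29.7% in DKO-C1 and 31.8% in DKO-C2, against 4.85% in control. AREG took 42.9% in CDK19KO-C1, 34.3% in CDK19KO-C2 and 29.3% in control. A share within a library does not depend on the library factor, but the sums do. With ERCC factors EREG (-1.29) and AREG (-0.66) fell in CDK19KO against control, so the higher CDK19KO sums are given for TMM scaling only.

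**Figure D2:**
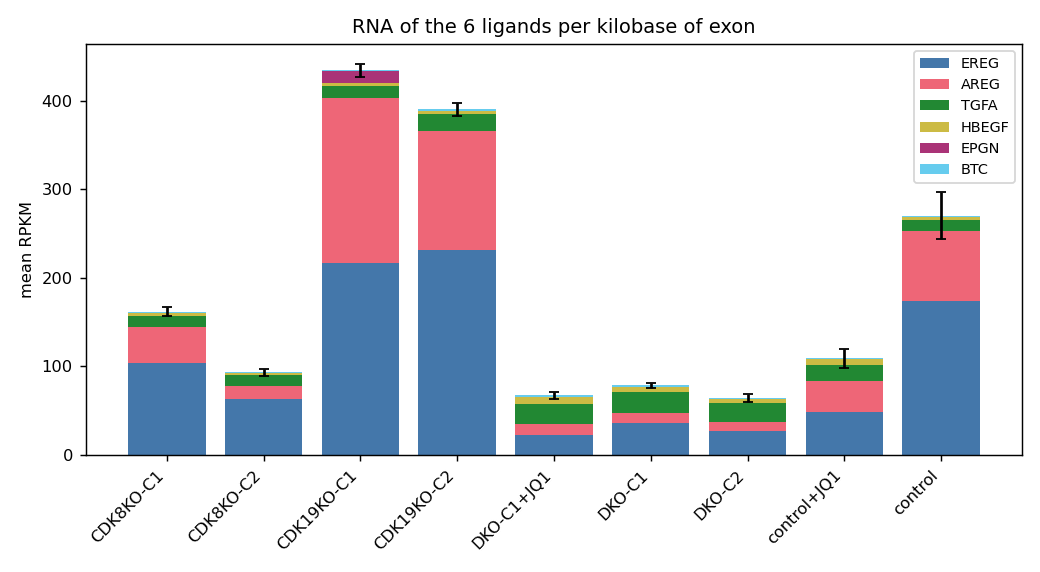
Stacked mean RPKM (CPM per kilobase of exon) of the 6 ligands in each group, with error bars of 1 SD of the summed RPKM over 3 libraries (2 for DKO-C1+JQ1). The sum is 434 and 390 in the CDK19KO sublines, 78.5 and 64.5 in DKO-C1 and DKO-C2, and 270 in control under TMM scaling; the CDK19KO rises of EREG and AREG become falls with ERCC factors.

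JQ1 in control cells was compared with untreated control cells, where 56% of tested genes were called. 7 members were called, 3 higher and 4 lower. EREG measured 251, 281 and 303 CPM with JQ1, against 933, 1090 and 953 CPM without it, and fell to 28.0% (-1.84 ± 0.0698, adjusted p = 1.78e-22). AREG measured 51.6, 56.9 and 62.6 CPM with JQ1, against 114, 147 and 131 CPM without it, and fell to 43.7% (-1.19 ± 0.0692, adjusted p = 4.42e-17). Neither gene's groups overlapped, and both falls were called with ERCC factors (-2.21 for EREG and -1.57 for AREG). BTC fell to 45.8% (-1.13 ± 0.162, adjusted p = 2.26e-07), with 1.77, 2.28 and 1.87 CPM against 4.41, 3.95 and 4.60 CPM.

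HBEGF measured 16.3, 18.6 and 20.7 CPM in control cells with JQ1, against 6.87, 10.2 and 8.29 CPM without it. It rose to 219% (1.13 ± 0.107, adjusted p = 2.44e-11), and with ERCC factors still by 0.75. TGFA measured 87.1, 88.1 and 105 CPM with JQ1, against 56.4, 72.1 and 66.8 CPM without it. That rise (0.52 ± 0.0715, adjusted p = 8.45e-08) missed the threshold with ERCC factors (0.14, adjusted p = 0.441). Set beside DKO, which shares the control libraries, JQ1 gave 28.0% of control EREG where DKO gave 18%, and 43.7% of control AREG where DKO gave 14.0%. BTC stood at 45.8% of control under JQ1 and at 120% in DKO.

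In DKO-C1, 5 members were called for JQ1, 2 higher and 3 lower, where 50.3% of tested genes were called. EREG measured 133 and 121 CPM with JQ1, against 215, 197 and 197 CPM without it, and fell to 62.6% (-0.68 ± 0.081, adjusted p = 6.68e-09). AREG overlapped, with 21.2 and 19.7 CPM with JQ1 and 19.5, 18.8 and 21.7 CPM without it (0.03 ± 0.101, adjusted p = 0.826). HBEGF measured 25.2 and 22.2 CPM with JQ1, against 16.9, 15.4 and 16.1 CPM without it, and rose to 147% (0.55 ± 0.104, adjusted p = 2.42e-05), but missed the threshold with ERCC factors (0.30, adjusted p = 0.203). BTC fell to 61.8% (-0.69 ± 0.15, adjusted p = 0.00017). TGFA, already high in this subline, had 119 and 114 CPM with JQ1 and 118, 119 and 109 CPM without it (0.01 ± 0.0762, adjusted p = 0.948).

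The JQ1 response in DKO-C1 was then compared with that in control cells, a difference called for 8.59% of tested genes and for 4 of the 9 members. The log2 change of EREG, which fell in both, was 1.16 ± 0.105 less negative in DKO-C1 (adjusted p = 2.05e-10). The change of AREG, which fell in control cells and was not called in DKO-C1, differed by 1.23 ± 0.122 (adjusted p = 2.35e-09). HBEGF, which rose in both, rose less in DKO-C1 (-0.58 ± 0.15, adjusted p = 0.0102), and TGFA, which rose in control cells and was not called in DKO-C1, differed by -0.52 ± 0.105 (adjusted p = 0.000759). Neither the HBEGF nor the TGFA difference was called with ERCC factors. The HBEGF call was lost without DKO-C1 JQ1 replicate a (-0.49, adjusted p = 0.0823) and likewise without control replicate 1 (-0.44, adjusted p = 0.0627). EGFR was not called (-0.27 ± 0.09, adjusted p = 0.0536), but was without control JQ1 replicate 1 (-0.33, adjusted p = 0.0155) and likewise without control replicate 2 (-0.31, adjusted p = 0.0314). The difference in BTC was not called (0.43 ± 0.225, adjusted p = 0.278). As DKO-C2 has no JQ1 samples here, the response of DKO rests on 1 subline.

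**Figure D3:**
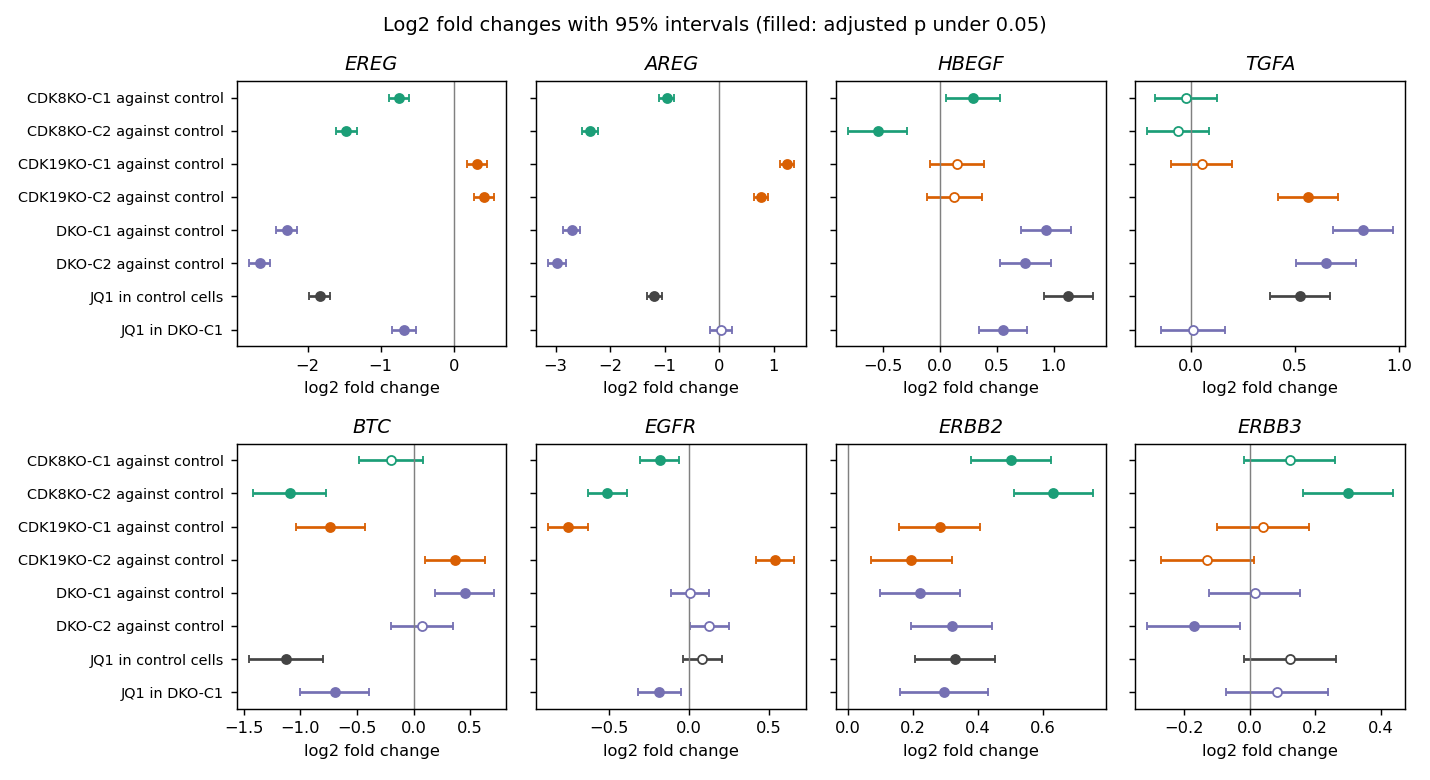
Log2 fold changes of 8 members (EPGN left out) for each subline against control and for JQ1, with 95% intervals under TMM scaling and filled points where the adjusted p is under 0.05. EREG and AREG lie left of 0 in the CDK8KO and DKO sublines and right of 0 in CDK19KO, where ERCC factors turn them negative; ERBB2 lies right of 0 throughout, and its rises against control turn into falls with ERCC factors.

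Among the receptors, EGFR (ENSG00000146648, chromosome 7, 55019021 to 55211628, plus strand) had the widest range. It encodes the receptor of most of these ligands. In CDK19KO-C1 it measured 85.1, 73.8 and 74.4 CPM, in CDK19KO-C2 190.8 to 190.9 CPM, and in control 126, 139 and 129 CPM. The sublines lay on opposite sides of control with no overlap. EGFR fell to 59.1% of control in C1 (-0.76 ± 0.0616, adjusted p = 1.07e-12) and rose to 145% in C2 (0.54 ± 0.059, adjusted p = 1.97e-09), a rise that turned into a fall with ERCC factors (-1.01). Their average was not called (-0.11 ± 0.0519, adjusted p = 0.0839), but was without CDK19KO-C1 replicate 1 (-0.15, adjusted p = 0.0205). CDK8KO-C1 measured 118, 113 and 117 CPM and CDK8KO-C2 88.7, 90.5 and 97.5 CPM, both below control. EGFR fell to 78.6% of control in CDK8KO (-0.35 ± 0.0517, adjusted p = 1e-06), although C1 (-0.18 ± 0.0601, adjusted p = 0.0137) lost its call without its replicate 2 (-0.17, adjusted p = 0.0592) and likewise without control replicate 2 (-0.14, adjusted p = 0.101).

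In DKO, EGFR overlapped control, at 131, 136 and 129 CPM in C1 and 150, 128 and 152 CPM in C2 (0.07 ± 0.0517, adjusted p = 0.271). Without DKO-C2 replicate b it was called (0.10, adjusted p = 0.0432), as was DKO-C2 alone (0.20, adjusted p = 0.00173), which was also called without control replicate 2 (0.17, adjusted p = 0.028). Control cells with JQ1 had 128, 141 and 149 CPM, which overlapped those without JQ1 (0.08 ± 0.0597, adjusted p = 0.237). DKO-C1 with JQ1 had 115 and 117 CPM, below the 3 libraries without it. That small fall (-0.19 ± 0.0674, adjusted p = 0.0199) lost its call without JQ1 replicate 1 (-0.16, adjusted p = 0.142), JQ1 replicate a (-0.19, adjusted p = 0.083) or DKO-C1 replicate 2 (-0.16, adjusted p = 0.0705). With 1 JQ1 library left, that library is assumed to vary like the other groups. EGFR-AS1 overlaps EGFR exons on the opposite strand, and the strand setting of the counts is not given.

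ERBB2 (ENSG00000141736, chromosome 17, 39687914 to 39730426, plus strand), the receptor that pairs with the others, was higher than control in all libraries of the other groups, relative to the median gene. It measured 125, 126 and 125 CPM in CDK8KO-C1 and 139, 134 and 139 CPM in CDK8KO-C2, against 93.3, 87.1 and 84.9 CPM in control. All 6 CDK8KO libraries lay above control. The rise to 148% of control (0.57 ± 0.0535, adjusted p = 6.57e-11) turned into a fall with ERCC factors (-0.65). In CDK19KO it rose to 118% (0.24 ± 0.0534, adjusted p = 0.000405) and in DKO to 121% (0.27 ± 0.0533, adjusted p = 3.52e-05), which became -1.41 and -0.62 with ERCC factors. In DKO-C1 alone it rose by 0.22 ± 0.0611 (adjusted p = 0.00217), against -0.79 with ERCC factors. In CDK19KO-C2 alone (0.20 ± 0.0613, adjusted p = 0.00927) the call was lost without C2 replicate 1 (0.16, adjusted p = 0.0651) and likewise without control replicate 3 (0.17, adjusted p = 0.0562). With JQ1 it rose in control cells (0.33 ± 0.0611, adjusted p = 1.75e-05; -0.04 with ERCC factors) and in DKO-C1 (0.30 ± 0.0668, adjusted p = 0.000309; not called at 0.02 with ERCC factors). ERBB2 shares 6.17% of its 50-base words with other genes, and PGAP3 and MIEN1 overlap its exons on the opposite strand. PGAP3 rose by 0.35 ± 0.101 in CDK8KO (adjusted p = 0.00489), and the DKO value was 0.40 ± 0.1 (adjusted p = 0.000769), both turning negative with ERCC factors, and its part in the ERBB2 values was not tested.

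ERBB3 (ENSG00000065361, chromosome 12, 56076799 to 56103505, plus strand), the neuregulin receptor, varied least, with group means from 31.6 to 43.7 CPM. It measured 38.0, 37.9 and 40.0 CPM in CDK8KO-C1 and 43.4, 44.99 and 42.7 CPM in CDK8KO-C2, against 41.4, 32.8 and 32.2 CPM in control. Control replicate 1 stood above the other two, and CDK8KO-C1 overlapped control. The rise in CDK8KO (0.21 ± 0.0595, adjusted p = 0.00426) turned into a fall with ERCC factors (-1.002), and was not called without control replicate 2 (0.16, adjusted p = 0.0659) or 3 (0.15, adjusted p = 0.0872). CDK19KO (-0.04 ± 0.0601, adjusted p = 0.582), DKO (-0.08 ± 0.06, adjusted p = 0.269) and JQ1 in control cells (0.12 ± 0.069, adjusted p = 0.131) were not called. Without control replicate 1, JQ1 in control cells (0.25, adjusted p = 0.00139), CDK8KO-C1 (0.25, adjusted p = 0.00238) and CDK19KO-C1 (0.17, adjusted p = 0.0368) became calls. The fall in DKO-C2 (-0.17 ± 0.07, adjusted p = 0.0355) was lost without C2 replicate a (-0.14, adjusted p = 0.117) or C2 replicate c (-0.16, adjusted p = 0.0968) and likewise without control replicate 1 (-0.04, adjusted p = 0.598). CDK19KO-C2 was called without control replicate 3 (-0.20, adjusted p = 0.037).

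**Figure D4:**
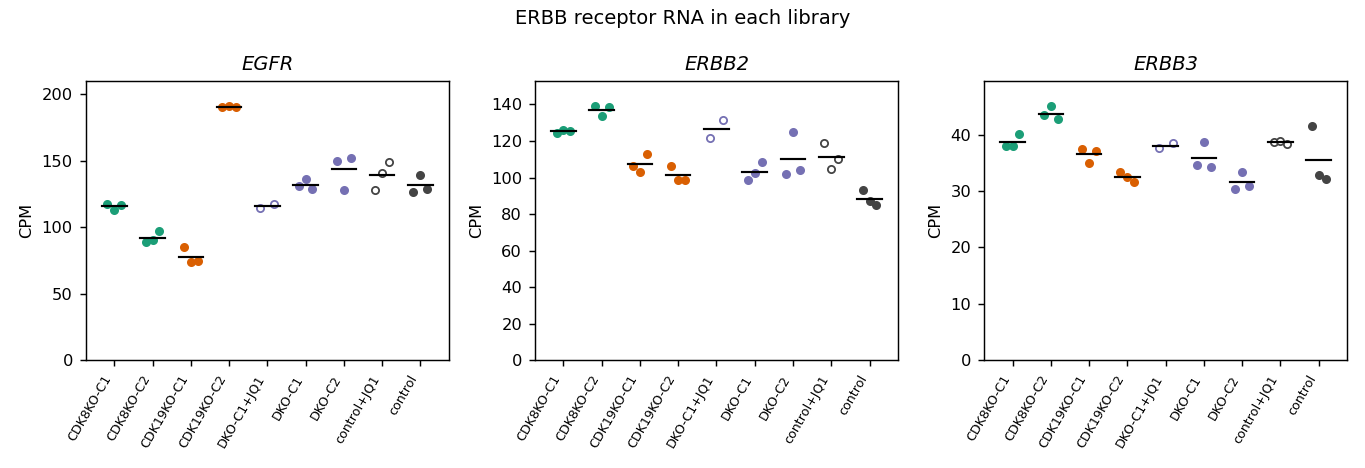
RNA of the 3 receptors in each library, in CPM on linear axes from 0, with open points for JQ1 and a line at each group's mean. EGFR lies near 191 CPM in all CDK19KO-C2 libraries and at 73.8 to 85.1 CPM in CDK19KO-C1; ERBB2 is lowest in control, and its rises against control turn into falls with ERCC factors.

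The order of the levels under TMM scaling separates the members. For EREG, the means ran from DKO-C1 with JQ1, DKO-C2, DKO-C1, control with JQ1, CDK8KO-C2, CDK8KO-C1 and control up to CDK19KO-C1 and CDK19KO-C2, and only DKO-C1 with JQ1 and DKO-C2 overlapped as neighbours. AREG had the same groups in a similar order, with CDK19KO-C1 on top and only DKO-C1 and DKO-C1 with JQ1 overlapping. With ERCC factors both genes were lower in the CDK19KO sublines than in control. The log2 fold changes were then -1.45 in C1 and -1.13 in C2 for EREG, and -0.54 and -0.79 for AREG. How many of all tested genes have groups as far apart was not counted. For HBEGF the highest means were DKO-C1 with JQ1 (23.7 CPM) and control with JQ1 (18.5 CPM), and control, CDK19KO-C2, CDK19KO-C1 and CDK8KO-C1 overlapped in turn. For TGFA, 4 groups from CDK8KO-C2 to CDK19KO-C1 overlapped in turn, and so did the 5 groups above them. The group means ranged 10.4-fold for EREG, 18.5-fold for AREG, 4.09-fold for HBEGF, 2.99-fold for BTC, 2.45-fold for EGFR, 1.86-fold for TGFA, 1.55-fold for ERBB2 and 1.38-fold for ERBB3.

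Among 3831 tested genes with a mean of at least 5 CPM in a group and a range of at least 1 log2 unit, those whose 9 group means of log2(CPM + 0.5) had the highest Pearson correlation with a member were found, leaving out clone-based names, as a description over 9 groups that share sublines. Those nearest to EREG were KIAA0040 (r = 0.961) and KLK7 (0.947), and EREG and AREG had an r of 0.943 with each other. Nearest to AREG were VTI1A (0.986) and CPOX (0.964), to HBEGF HCFC2 (0.995) and LYST (0.970), to BTC IFRD1 (0.922) and POPDC3 (0.916), and to EGFR TRHDE (0.932) and SRGAP1 (0.925). For EPGN, VAT1L (0.998) and MSR1 (0.983) shared the single high subline, so 1 group sets those values. TGFA, ERBB2 and ERBB3 ranged over less than 1 log2 unit and were left out.

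Sublines of 1 genotype differed in several members. Between CDK19KO-C1 and CDK19KO-C2, 6 members were called, 3 higher and 3 lower in C1, where 48% of tested genes were called. C1 had 139% of the AREG, 46.6% of the BTC and 40.8% of the EGFR of C2, though the AREG difference lost its call with ERCC factors (0.25, adjusted p = 0.206). The ERBB3 difference (0.17 ± 0.0701, adjusted p = 0.0429) was lost without any 1 of 5 libraries, the exception being C1 replicate 2, and changed sign with ERCC factors (-0.05). CDK8KO-C1 exceeded CDK8KO-C2 in 5 members, where 21.1% of tested genes were called, (11.5% counting only rises), with 165% of the EREG, 266% of the AREG and 186% of the BTC. The EGFR difference between them (0.33 ± 0.0612, adjusted p = 9.32e-05) lost its call with ERCC factors (0.39, adjusted p = 0.132). Between DKO-C1 and DKO-C2 only EREG was called (129%, adjusted p = 0.000313), where 9.42% of tested genes were called, and it lost that call with ERCC factors (0.16, adjusted p = 0.485). The count was 2 without DKO-C1 replicate 2 (BTC added, 0.50, adjusted p = 0.012), 3 without DKO-C2 replicate a (TGFA added, 0.24, adjusted p = 0.0262, and BTC, 0.43, adjusted p = 0.0471) and 2 without DKO-C2 replicate b (EGFR added, -0.20, adjusted p = 0.0186).

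The other genes of the pathway were taken as lists, whose counts and medians below are under TMM scaling. They stand beside the shares of all tested genes called, 40.5% in CDK8KO, 43% in CDK19KO and 61.6% in DKO. Under JQ1 the shares were 56% in control cells and 50.3% in DKO-C1. Of the other EGF family ligands and ERBB4, 4 of 6 were tested, and ERBB4 and NRG3 had too few counts. None was called in CDK8KO, 1 rose in CDK19KO and 2 rose in DKO, while all 4 fell under JQ1 in control cells and in DKO-C1. NRG1, the neuregulin that binds ERBB3, averaged 2.97 ± 0.458 CPM in DKO-C1 and 6.05 ± 0.634 CPM in DKO-C2, against 1.05 ± 0.147 CPM in control (SD, n = 3 each). It rose 4.0-fold in DKO (2.00 ± 0.17, adjusted p = 6.11e-13) and kept a call with ERCC factors (1.11). The median log2 fold change of these 4 genes in DKO was 0.96, where that of all tested genes was -0.02.

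Of the genes for ligand shedding and its inhibitors, 13 were tested. 5 rose and 2 fell in CDK8KO, 5 rose and 4 fell in CDK19KO, and 9 rose and 3 fell in DKO, with medians of 0.18, 0.04 and 0.26. TIMP3, an inhibitor of ADAM17, rose in CDK8KO (2.81 ± 0.112, adjusted p = 1.87e-21; 1.602 with ERCC factors) and in DKO (2.84 ± 0.111, adjusted p = 4.22e-23; 1.94 with ERCC factors). TIMP2, a metalloprotease inhibitor, rose in DKO (1.76 ± 0.0411, adjusted p = 1.8e-30; 0.86 with ERCC factors). ADAM19, a metalloprotease, fell in CDK8KO (-2.02 ± 0.0497, adjusted p = 1.25e-27) and under JQ1 in control cells (-1.08 ± 0.0556, adjusted p = 1.69e-18) and in DKO-C1 (-0.95 ± 0.0632, adjusted p = 2.82e-15), with the same sign under ERCC factors. In CDK19KO it rose (0.61 ± 0.0456, adjusted p = 1.38e-13), which ERCC factors turned into a fall of -1.04.

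Among 22 tested genes for receptor feedback and downregulation, 7 rose and 6 fell in CDK8KO, 9 rose and 6 fell in CDK19KO, and 11 rose and 4 fell in DKO. ERRFI1, a feedback inhibitor of ERBB kinases, fell in CDK8KO (-0.72 ± 0.0398, adjusted p = 3.18e-17) and under JQ1 in control cells (-1.58 ± 0.0487, adjusted p = 2.62e-25) and in DKO-C1 (-1.14 ± 0.0556, adjusted p = 4.84e-19), with the same sign under ERCC factors. LRIG1, which promotes ERBB receptor breakdown, rose in CDK8KO (1.01 ± 0.0794, adjusted p = 7.06e-13) and CDK19KO (0.60 ± 0.0822, adjusted p = 2.55e-07), both turning negative with ERCC factors. In DKO, PTPRJ, a receptor phosphatase, rose by 1.41 ± 0.0496 (adjusted p = 1.31e-24) and SPRY2, a feedback regulator of RAS-MAPK signalling, by 1.41 ± 0.093 (adjusted p = 5.16e-16), both called with ERCC factors.

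Of 23 tested adaptors and first effectors, 10 rose and 2 fell in CDK8KO, 8 rose and 0 fell in CDK19KO, 12 rose and 2 fell in DKO, and 13 rose and 3 fell under JQ1 in control cells. The medians were 0.15, 0.10, 0.13 and 0.21. GAB1, a docking protein, rose under JQ1 in control cells (1.26 ± 0.174, adjusted p = 1.14e-07) and in DKO-C1 (1.195 ± 0.153, adjusted p = 2.73e-08), both called with ERCC factors. In DKO, GAB2 (1.06 ± 0.109, adjusted p = 1.03e-10) and STAT3 (0.92 ± 0.0408, adjusted p = 2.34e-21) rose, but were not called with ERCC factors.

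Of 18 MAPK output genes, which report signalling below the receptors and of which 4 are also in the feedback list, 7 rose and 5 fell in CDK8KO, 7 rose and 4 fell in CDK19KO, and 10 rose and 5 fell in DKO. The CDK19KO sublines differed, with 4 higher and 10 lower in C1 (46.1% of tested genes called) and 13 higher and 2 lower in C2 (42.4%). C1 against C2 gave 1 higher and 15 lower, where 48% of tested genes were called. The median was -0.70, where that of all tested genes was -0.00. With ERCC factors the latter was -0.23, and 735 of all tested genes were called higher and 4474 lower in C1. DUSP6, a phosphatase of ERK, was lower in C1 by -1.47 ± 0.0556 on the log2 scale (adjusted p = 1.47e-22; -1.69 with ERCC factors), in the same direction as EGFR. MYC, a transcription factor, fell by 0.63 ± 0.0519 in CDK8KO (adjusted p = 1.92e-12) and by 1.79 ± 0.0519 in DKO (adjusted p = 2.08e-27), with the same sign under ERCC factors. Under JQ1, 4 rose and 9 fell in control cells, and 6 rose and 8 fell in DKO-C1. EGR1, an immediate early transcription factor, rose by 1.197 ± 0.177 in control cells (adjusted p = 3.81e-07) and by 3.08 ± 0.229 in DKO-C1 (adjusted p = 5.25e-14).

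Other receptor tyrosine kinases were taken for comparison with the ERBB receptors, with 23 tested. 15 rose and 0 fell in CDK8KO, 9 rose and 5 fell in CDK19KO, and 16 rose and 5 fell in DKO, with medians of 0.22, 0.04 and 0.36. Of all tested genes, 40.5%, 43% and 61.6% were called in these comparisons. With ERCC factors, 55 of all tested genes were called higher and 16222 lower in CDK8KO. The counts of this list are given for TMM scaling only. RET rose in CDK8KO (1.09 ± 0.112, adjusted p = 5.66e-10) and CDK19KO (1.03 ± 0.113, adjusted p = 2.62e-09), where ERCC factors turn it negative, and in DKO (1.81 ± 0.104, adjusted p = 7.61e-18; 0.92 with ERCC factors). EPHA2 rose in DKO (1.37 ± 0.0727, adjusted p = 7.16e-19; 0.46 with ERCC factors).

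Of 12 neighbours of the ligand cluster on chromosome 4, 5 were tested. 3 fell in CDK8KO and 3 in DKO, where 1 rose, and 3 rose and 1 fell in CDK19KO. MTHFD2L, a folate-pathway enzyme that ends 5374 bases before EPGN begins, fell in CDK8KO (-0.47 ± 0.116, adjusted p = 0.00114) and DKO (-0.55 ± 0.116, adjusted p = 8.52e-05), far less than EREG and AREG in size. In CDK19KO-C1, where EPGN rose, this nearest neighbour (singled out after its values were seen) was at 8.50 ± 0.744 CPM, against 9.91 ± 0.528 CPM in control (SD, n = 3 each), with no call. Of 10 neighbours of ERBB2, 6 were tested. In DKO 1 rose (PGAP3, the same way as ERBB2) and 3 fell, where 61.6% of tested genes were called. GRB7, an adaptor, was among those that fell (-0.48 ± 0.0725, adjusted p = 4.43e-07). ERBB2 was at 121% of control in DKO under TMM scaling, but fell with ERCC factors (-0.62).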

How the data were processed

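Gene counts of 26 HCT116 libraries were deposited as 1 table, and the unit is whole-number read counts per gene. Per the submitters' processing notes, the tools were STAR 2.5.2 and featureCounts of Subread 1.6.3, with build hg38; no annotation release, library preparation or strand setting is given in the sources used here. Of the 26 columns, 22 matched 1 sample and 4 matched a group only. The 92 ERCC transcripts were kept apart from the 58039 genes. Gene counts per library were 17700864 to 19093094, so intervals on counts cover counting error only.

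Counts were fitted in R 4.3.3 with edgeR 4.0.16: filterByExpr (minimum count 10, minimum total 15) left 17198 genes, with TMM factors from 0.956 to 1.02, and all 26 libraries shared 1 quasi-likelihood fit without a replicate block, from which 17 contrasts were taken. A genotype's effect is the mean of its sublines. Adjusted p-values (Benjamini-Hochberg) were called under 0.05. The SE of a log2 fold change was derived as its absolute value over the square root of the quasi-likelihood F statistic. Intervals of log2 fold changes used this SE. RPKM used merged exon length. In counts simulated for 17198 genes, 72% to 93% of 1.5-fold and 88% to 100% of 2-fold changes were called. The changed genes were a small set drawn from the better-counted genes, so these rates do not cover genes with few counts. Far fewer genes changed in the simulation than were called in the data. All 25 pairs of libraries within groups differed beyond sampling noise (chi-square per degree of freedom from 1.41 to 13.2).

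Members and the 8 lists (134 entries, all in the table) were chosen with earlier results of these data known. From each list, the text names at most the 2 called genes with the largest change in a comparison that reached 5 CPM and had the same call in both sublines. Alternatives were DESeq2 1.42.0, DESeq2 size factors, ERCC factors, no filter, only the libraries compared, each subline alone, a replicate block and leaving out each library. Same-numbered replicates did not deviate together (25 correlations, -0.0177 to 0.0540), so the numbers were not taken as pairs. RefSeq promoters matched 8 members.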

Additional observations from a re-analysis of the deposited data

Results flagged for a closer look

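All of these were picked out because a test of the difference itself (edgeR, adjusted p under 0.05) was passed, either between the sublines of 1 genotype or between the JQ1 responses of DKO-C1 and control cells. Groups had 2 or 3 libraries, too few to test for a library far from the rest.

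CDK8KO-C1 exceeded CDK8KO-C2, on the log2 scale, by 0.72 in EREG, 1.41 in AREG, 0.84 in HBEGF, 0.89 in BTC and 0.33 in EGFR. CDK19KO-C1 differed from CDK19KO-C2 by 7.15 in EPGN, 0.48 in AREG, -0.51 in TGFA, -1.10 in BTC, -1.29 in EGFR and 0.17 in ERBB3. DKO-C1 exceeded DKO-C2 by 0.37 in EREG. The JQ1 response in DKO-C1 minus that in control cells was 1.16 for EREG, 1.23 for AREG, -0.58 for HBEGF and -0.52 for TGFA.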

How the results depend on the processing

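Changing the library factors to those from ERCC had the widest effect. Of 153 values, 49 that were called with TMM or ERCC factors changed sign, and among those that kept it 10 lost and 10 gained a call. Other values changed sign without a call under either set of factors. They are left out of this count and of the list that follows. The log2 fold changes against control that changed sign were, for CDK8KO, ERBB2 -0.65 and ERBB3 -1.002; for CDK19KO, EREG -1.29, AREG -0.66, HBEGF -1.52, TGFA -1.35 and ERBB2 -1.41; for DKO, HBEGF -0.064, TGFA -0.17, BTC -0.63, EGFR -0.84 and ERBB2 -0.62; for CDK8KO-C1, HBEGF -0.90, ERBB2 -0.69 and ERBB3 -1.06; for CDK8KO-C2, ERBB2 -0.62 and ERBB3 -0.94; for CDK19KO-C1, EREG -1.45, AREG -0.54, HBEGF -1.62, TGFA -1.71, ERBB2 -1.48 and ERBB3 -1.72. For CDK19KO-C2 they were EREG -1.13, AREG -0.79, HBEGF -1.42, TGFA -0.98, BTC -1.17, EGFR -1.01 and ERBB2 -1.35; for DKO-C1, HBEGF -0.089, TGFA -0.19, BTC -0.56, EGFR -1.01, ERBB2 -0.79 and ERBB3 -0.99; for DKO-C2, HBEGF -0.040, TGFA -0.15, BTC -0.71, EGFR -0.67 and ERBB2 -0.46. In the other contrasts they were HBEGF 0.16, TGFA 0.079 and EGFR 0.19 (CDK8KO against CDK19KO), EREG 0.23, ERBB2 1.44 and ERBB3 1.72 (DKO past the summed single knockouts), ERBB2 -0.036 (JQ1 in control cells) and ERBB3 -0.051 (CDK19KO-C1 against C2). With ERCC factors, 9 members were called in CDK19KO (1 higher and 8 lower), 5 in CDK8KO against CDK19KO, 3 for JQ1 in DKO-C1, 2 for the difference of the JQ1 responses, 8 in CDK8KO-C1 and 0 in DKO-C1 against DKO-C2. Over all genes, calls higher and lower were 55 and 16222 with ERCC factors (3359 and 3609 with TMM) in CDK8KO, 34 and 16821 (3612 and 3779) in CDK19KO, 585 and 14333 (5067 and 5519) in DKO, and 801 and 7666 (4637 and 5000) for JQ1 in control cells.

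Each subline alone gave these changes of sign among values called before or after the change. CDK8KO against CDK19KO changed sign in C1 for HBEGF (0.14), BTC (0.53) and EGFR (0.57) and in C2 for EPGN (0.12). Against control, HBEGF did in CDK8KO-C1 (0.29) and BTC (0.37) and EGFR (0.54) in CDK19KO-C2. Without the filter, 3 members were called in DKO-C1 against DKO-C2. Leaving out 1 library changed no sign among called values, and gave 3 to 5 calls in CDK8KO-C1 and 1 to 3 in DKO-C1 against DKO-C2. A replicate block, with 4 unnumbered libraries left out, lost the calls of EGFR for JQ1 in DKO-C1 (-0.18, adjusted p = 0.0751) and HBEGF for the difference of the JQ1 responses (-0.44, adjusted p = 0.129), gained ERBB2 (-0.14) and ERBB3 (-0.19) between the CDK8KO sublines, and could not be fitted for contrasts with DKO-C2. DESeq2 lost 4 calls and its size factors none. With only the libraries compared, 2 calls were lost and 4 gained, among them EGFR for the difference of the JQ1 responses (-0.33, edgeR adjusted p = 0.00434). The BTC rise in DKO was not called with DESeq2 (adjusted p = 0.0983). Nor was it called in edgeR without the filter (adjusted p = 0.108) or with only the libraries compared (adjusted p = 0.0751). The cause of these changes was not tested.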
